A study of Homo sapiens with 8 samples.

Results

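PC3 cells given either of a pair of circular RNAs were compared with PC3 cells given a control plasmid, across all genes and not only those known to respond to interferon. These are 4 of the 8 libraries of the study, and they were chosen by the cell line in their titles. PC3 is an established human prostate cancer line that grows without androgen, and DU145, the line of the other 4 libraries, is another. In each line, one library came from cells transfected with an expression plasmid for circ0003553, one with an expression plasmid for circ0004592, and each had a library of cells with a negative control plasmid. The titles name these arms RCAN3 (circ0003553) and STK3 (circ0004592), after the genes the circles are made from. Total RNA was depleted of ribosomal RNA and sequenced. The question was which RNAs differ in amount once either circRNA is supplied. Each circRNA is 1 library in PC3, and the pair that forms the circRNA group carries different inserts. Nothing says that the control libraries were separate cultures. Every p-value of the PC3 comparison thus measures the spread among these 4 libraries, which may be technical and is largely pooled over genes. Those of the line difference rest on all 8 libraries, with the same limits.

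Circular RNAs are closed loops, made when a downstream splice site of an exon joins an upstream one. Cells watch for foreign or unusually paired RNA with cytosolic sensors such as RIG-I (gene DDX58) and MDA5 (gene IFIH1). Sensors signal through MAVS to the kinase TBK1 and to interferon regulatory factors, and secreted interferon then acts through its receptor, JAK kinases, STAT factors and IRF9 on a large set of interferon-stimulated genes. Many of these genes carry an interferon-stimulated response element (ISRE) in their promoters, and their proteins block virus entry, translation and replication or display peptides to T cells.

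The 4 PC3 libraries held 33444940 to 35512031 counts. Levels are given as CPM, the count as a share of each library's effective size on a fixed scale, and 16189 genes with at least 1 CPM in at least 2 PC3 libraries were tested with edgeR. A gene was called at an adjusted p under 0.05. Epithelial markers were present in all 4 libraries, with KRT8 at 350 to 434 CPM and KRT19 at 422 to 754 CPM. The prostate antigen KLK3 lay at 0 to 0.0300 CPM. Of 9 leukocyte markers, 8 were under 1 CPM or not listed in every PC3 library, and the leukocyte-defining PTPRC reached at most 0.0600 CPM. The exception was CD68, a lysosomal protein, at 295 and 270 CPM in the controls and 593 and 616 CPM with the circRNAs. All 5 erythroid markers, 5 of 7 fibroblast markers and 4 of 6 endothelial markers were likewise under 1 CPM or not listed. The exceptions were COL1A1 (21.8 to 27.2 CPM), PDGFRA (1.29 to 3.4 CPM), KDR (37.8 to 45.9 CPM) and PECAM1 (5.43 to 5.92 CPM), while the fibroblast collagen COL1A2 was at 0 counts and the endothelial cadherin CDH5 reached at most 0.0561 CPM.

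With either circRNA, PC3 cells held far more RNA of interferon-stimulated genes, more of genes of cytokine signalling and cell death, and less mitochondrial and ribosomal protein RNA. Of the 16189 tested genes, 5676 were called (35.1%), 2677 higher (16.5%) and 2999 lower (18.5%). The rises were much larger than the falls. By at least 2-fold, 529 genes were higher and 164 lower. By at least 4-fold, 217 were higher and 6 lower, and by at least 16-fold, 79 were higher and 0 lower. The median log2 change over all tested genes was -0.03. By annotated class, 418 of the 529 genes higher by at least 2-fold were protein coding, of 12303 coding genes tested. A further 20 were long noncoding, of 702, and 70 had names with no match in the annotation, of 2549. The number of calls fell to 2848 with no filter on low counts and to 3694 in a fit of all 8 libraries. In a simulated table of the same design, the test recovered 100% of genes changed by 2-fold or 4-fold, with 12 false calls among 15902 genes. The changed genes were drawn only from those with many counts, and every gene had the same set dispersion. Recovery was thus not checked for genes of few counts, and smaller changes were not simulated.

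**Figure D1:**
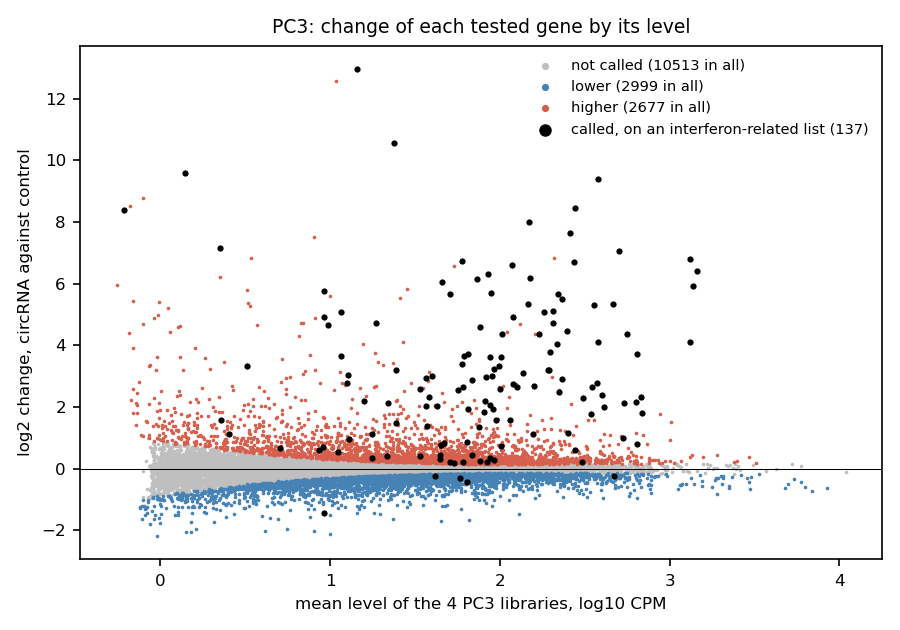
Log2 change of each gene tested in PC3 (circRNA against control, vertical axis) against its mean level over the 4 libraries (log10 CPM, horizontal axis). Points stand for genes, coloured by call, with called genes on an interferon-related list in black. Above a log2 of 4 (16-fold) lie 79 genes, while 6 falls reach -2 (4-fold).

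Genes on interferon-related lists rose more often than others, while most genes that rose stood off these lists. The gene lists taken as interferon-related run from sensors to effectors, antigen presentation and chemokines. They were written with earlier results of these data known, so the shares on and off them are description and no test. Standing off the lists does not place a gene outside the interferon response. Of the 529 genes higher by at least 2-fold, 106 stood on these lists and 423 did not, which is 66.7% of the 159 listed genes tested and 2.64% of the 16030 others. Among the 217 genes higher by at least 4-fold, 89 were on the lists and 128 were not. The 182 listed genes took 1.10% and 1.09% of all counts in the controls and 4.77% and 4.70% with the circRNAs. In the DU145 libraries the same genes took 1.04% to 1.08%, controls and circRNAs alike.

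The promoters of the raised genes were searched for the ISRE core in the 300 bases from 250 before to 50 after each gene's start. The core was read as TTTC, any 2 bases and TTTC again, or the reverse complement with GAAA at both ends. Of 16189 tested genes, 10914 matched a promoter in the RefSeq table (GRCh38.p14), and 2.94% of those held a match. The share was 51.0% among genes higher by at least 16-fold (25 of 49), 37.9% at 4-fold to 16-fold and 9.62% at 2-fold to 4-fold. It was 3.23% among smaller rises, 2.31% among genes not called, 1.56% among falls under 2-fold and 1.04% among larger falls (1 of 96). Off the interferon-related lists, 24.2% of the genes higher by at least 4-fold held a match (16 of 66). Below stand the 250 bases before the start of 6 raised genes, 5′ to 3′ on the gene's strand, with ISRE matches in capitals. IFIT1, ISG15, BST2 and CXCL10 are interferon-related effectors, and TNFSF10 and LAP3 show matches in genes off those lists. They lie at chr10:89392373-89392622 (plus strand, IFIT1), chr1:1013247-1013496 (plus, ISG15), chr19:17405631-17405880 (minus, BST2), chr4:76023498-76023747 (minus, CXCL10), chr3:172523431-172523680 (minus, TNFSF10) and chr4:17576948-17577197 (plus, LAP3). A match describes the letters and is no proof of a binding site.
IFIT1: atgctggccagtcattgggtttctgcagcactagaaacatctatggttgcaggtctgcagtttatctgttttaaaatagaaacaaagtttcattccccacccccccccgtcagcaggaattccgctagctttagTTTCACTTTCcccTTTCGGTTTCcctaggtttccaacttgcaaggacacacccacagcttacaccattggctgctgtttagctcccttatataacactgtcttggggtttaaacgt
ISG15: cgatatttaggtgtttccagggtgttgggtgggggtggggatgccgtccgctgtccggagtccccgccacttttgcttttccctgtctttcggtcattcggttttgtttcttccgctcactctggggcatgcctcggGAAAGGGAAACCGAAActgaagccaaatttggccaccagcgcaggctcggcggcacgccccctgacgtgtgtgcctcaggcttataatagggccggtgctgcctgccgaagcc
BST2: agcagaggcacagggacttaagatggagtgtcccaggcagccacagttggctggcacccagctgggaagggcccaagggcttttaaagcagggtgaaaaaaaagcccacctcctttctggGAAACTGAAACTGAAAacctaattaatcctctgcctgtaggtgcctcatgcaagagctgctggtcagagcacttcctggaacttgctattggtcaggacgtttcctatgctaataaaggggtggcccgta
CXCL10: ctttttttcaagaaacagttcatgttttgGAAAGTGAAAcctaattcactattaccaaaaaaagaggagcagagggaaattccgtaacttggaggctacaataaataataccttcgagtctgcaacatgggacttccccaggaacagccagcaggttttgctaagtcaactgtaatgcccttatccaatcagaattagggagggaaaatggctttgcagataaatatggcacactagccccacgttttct
TNFSF10: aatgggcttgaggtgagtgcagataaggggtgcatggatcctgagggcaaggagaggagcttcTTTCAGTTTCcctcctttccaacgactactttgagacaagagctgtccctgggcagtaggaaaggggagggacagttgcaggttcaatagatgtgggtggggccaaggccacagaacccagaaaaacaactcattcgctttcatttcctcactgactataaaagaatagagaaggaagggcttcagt
LAP3: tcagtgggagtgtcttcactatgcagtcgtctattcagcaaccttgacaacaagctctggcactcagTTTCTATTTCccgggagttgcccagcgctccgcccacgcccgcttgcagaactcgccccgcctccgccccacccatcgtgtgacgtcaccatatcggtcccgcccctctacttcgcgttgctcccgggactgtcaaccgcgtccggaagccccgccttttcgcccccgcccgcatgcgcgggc

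Further motifs were searched on both strands of the same windows. The kappa-B letters (GGG, any 2 bases, TTTCC) stood in 2.24% of tested genes' promoters and in 5.15% of genes higher by at least 4-fold. In the NF-kB list they stood in 7 of 18 (38.9%). GAS letters (TTC, any 3 bases, GAA, a STAT dimer motif) stood in 6.50% of promoters, in 16.9% of genes higher by at least 4-fold and in 8.33% of genes lower by at least 2-fold. The amino acid response letters (TGATG, any base, AA) stood in 1.70% of promoters and in 4 of 20 of the stress response and amino acid list (20%). Their share was 2.94% among genes higher by at least 4-fold and 4.17% among genes lower by at least 2-fold. Sterol response letters (ATCAC, any base, CCAC) stood in 0.11% of promoters and in 1 of 18 of the cholesterol list. Such lists were written by known function, so their motif shares describe the lists and not the circRNA effect.

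Interferon RNA itself was scarce. IFNB1, the type I interferon that epithelial cells make first, had 0 counts in both controls, 44 counts (1.33 CPM) with circ0003553 and 30 counts (0.899 CPM) with circ0004592. It fell short of the level needed for testing. IFNA1, IFNA8 and IFNA13 were at 0 counts in all 4 libraries, which allows up to 0.167 to 0.181 CPM, and the type III genes IFNL1, IFNL2 and IFNL3 stood at 0 to 0.180 CPM.

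Of 12 tested genes of RNA sensing, 9 were called higher and 2 lower, with a median log2 change of 0.97. DDX58 stood at 10.3 and 10.4 CPM in the controls and at 369 and 337 CPM with the circRNAs (log2 5.09 ± 0.08 SE, edgeR adjusted p = 7.75e-27). IFIH1 went from 10.6 and 9.38 CPM to 463 and 451 CPM. Both sensors were more than 30 times as abundant with either circRNA, and no library of one group came near the other. Members downstream of the sensors moved little: the adaptor MAVS fell by 0.30 and the ubiquitin ligase TRAF3 by 0.44 on the log2 scale, and TBK1 rose by 0.44. Of 9 DNA sensing genes, 5 rose and 0 fell. AIM2, which senses cytosolic DNA, went from 0.196 and 0.473 CPM to 18.6 and 17.9 CPM, and the nuclear sensor IFI16 from 127 and 128 CPM to 667 and 671 CPM. MB21D1 (cGAS) rose by 0.68, and its partner TMEM173 (STING) was not called (log2 0.15).

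Many interferon signalling genes rose, several transcription factors among them. Of 15 ligands, receptors and JAK-STAT genes tested, 10 rose and 1 fell, with a median of 0.33. STAT2 went from 34.1 and 35.9 CPM to 217 and 219 CPM (2.64 ± 0.06, edgeR adjusted p = 2.11e-22). Its partner IRF9 rose by 2.60 and the kinase JAK2 by 1.47. USP18, a protease that takes ISG15 off proteins and damps the receptor, rose by 4.58. Of 8 interferon regulatory factors, 5 rose, led by IRF7 from 5.53 and 4.15 CPM to 44.1 and 44.4 CPM and by IRF1 (1.94). That count was 3 without the PC3 circ0004592 library.

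All 32 interferon effectors rose, with a median log2 change of 5.32 beside -0.03 over all tested genes. Their joint share of counts was 0.0614% and 0.0608% in the controls and 1.83% and 1.79% with the circRNAs. MX1 (chromosome 21, 41420304 to 41459214), a GTPase that traps virus particles, stood at 23.4 and 23.8 CPM in the controls and at 2668 and 2544 CPM with the circRNAs. This is a log2 change of 6.79 ± 0.08 (edgeR adjusted p = 2.50e-28). IFIT2, which binds viral RNA, went from 34.5 and 34.0 CPM to 2910 and 2852 CPM and showed the largest gain in CPM of any gene. RSAD2 (viperin), which makes a chain-ending nucleotide, went from 0.785 and 1.45 CPM to 771 and 748 CPM. OASL, of the oligoadenylate synthetase family, went from 1.43 and 1.73 CPM to 569 and 538 CPM. BST2 (tetherin), which holds budding virus at the membrane, went from 3.14 and 2.00 CPM to 523 and 502 CPM. The RNA editor ADAR rose less, by 1.77. XAF1, which favours apoptosis, had 0 counts in both controls and 26.3 and 31.8 CPM with the circRNAs. Set against a floor of 6 counts (3 read pairs) per control library, that is at least 173-fold higher.

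Per length, the effectors reached the top of the transcriptome. By RPKM, ISG15 ranked 682nd and 628th of 12290 nuclear protein-coding genes in the controls, and 10th and 6th with circ0003553 and circ0004592. IFIT3 moved from 2093rd and 2271st to 9th and 14th. BST2 moved from 7507th and 8883rd to 34th and 33rd. Each of these genes held a like rank with both circRNAs.

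ISG15, a small modifier that is joined to proteins like ubiquitin, rose together with its whole conjugation set (5 of 5 tested). ISG15 went from 50.4 and 54.2 CPM to 1006 and 1141 CPM, the activating enzyme UBA7 rose by 3.02, and the ligase HERC5 by 4.93. All 5 guanylate-binding proteins, GTPases that attack membranes of intracellular pathogens, rose, with a median of 5.34. GBP5 went from 1.94 and 2.09 CPM to 146 and 143 CPM. TRIM ubiquitin ligases rose in 10 of 12. TRIM22, which restricts viral transcription, went from 1.18 and 1.11 CPM to 297 and 294 CPM, whereas TRIM28 and TRIM37 were not called (log2 0.00 and -0.01). In the PARP family 10 of 12 rose, among them PARP9 (4.10) and PARP14 (3.73), and PARP1, the DNA damage enzyme, fell by 0.26. A set of 19 scramblases, nuclear body and membrane genes rose throughout, with a median of 2.66. Among these, LGALS9 had 0 counts in both controls and 1.03 and 1.41 CPM with the circRNAs, at least 7.27-fold above the floor.

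Antigen presentation and the proteasome rose at different sizes. Of 16 class I genes, 13 rose and 0 fell, with a median of 1.48. HLA-C went from 232 and 222 CPM to 1172 and 1095 CPM, the peptide transporter TAP1 from 13.4 and 12.9 CPM to 164 and 163 CPM, and NLRC5, the class I transactivator, from 0.477 and 0.696 CPM to 17.1 and 18.4 CPM. HLA genes are polymorphic paralogs whose reads may be divided by the counting. All 5 immunoproteasome genes rose (median 1.13), PSMB9 by 3.65 and the activator subunit PSME2 by 1.13. Among the 27 constitutive proteasome subunits, 17 rose and 0 fell, with a median of only 0.23 and with PSMA6 (0.89) and PSMA3 (0.76) ahead. That count was 11 without the PC3 control of the RCAN3 arm, 10 with no filter on low counts and 10 in a fit of all 8 libraries.

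Chemokines did not move as a group. Of 9 tested, 4 rose, 1 fell and 4 were not called. CXCL11, a ligand of CXCR3 on T cells, had 2 counts (0.0561 CPM) and 0 counts in the controls and 51.9 and 43.1 CPM with the circRNAs. CXCL10, which shares this receptor, had 0 counts in both controls and 3.08 and 2.55 CPM, at least 16.8-fold above the floor. The neutrophil chemokine CXCL5 fell from 13.7 and 13.2 CPM to 5.07 and 4.92 CPM (-1.43 ± 0.13, edgeR adjusted p = 9.46e-10). Its relatives CXCL1 (-0.05) and CXCL2 (0.03) were not called. Without either of the PC3 circRNA libraries, or with a filter of 5 CPM, 2 chemokines were called higher.

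**Figure D2:**
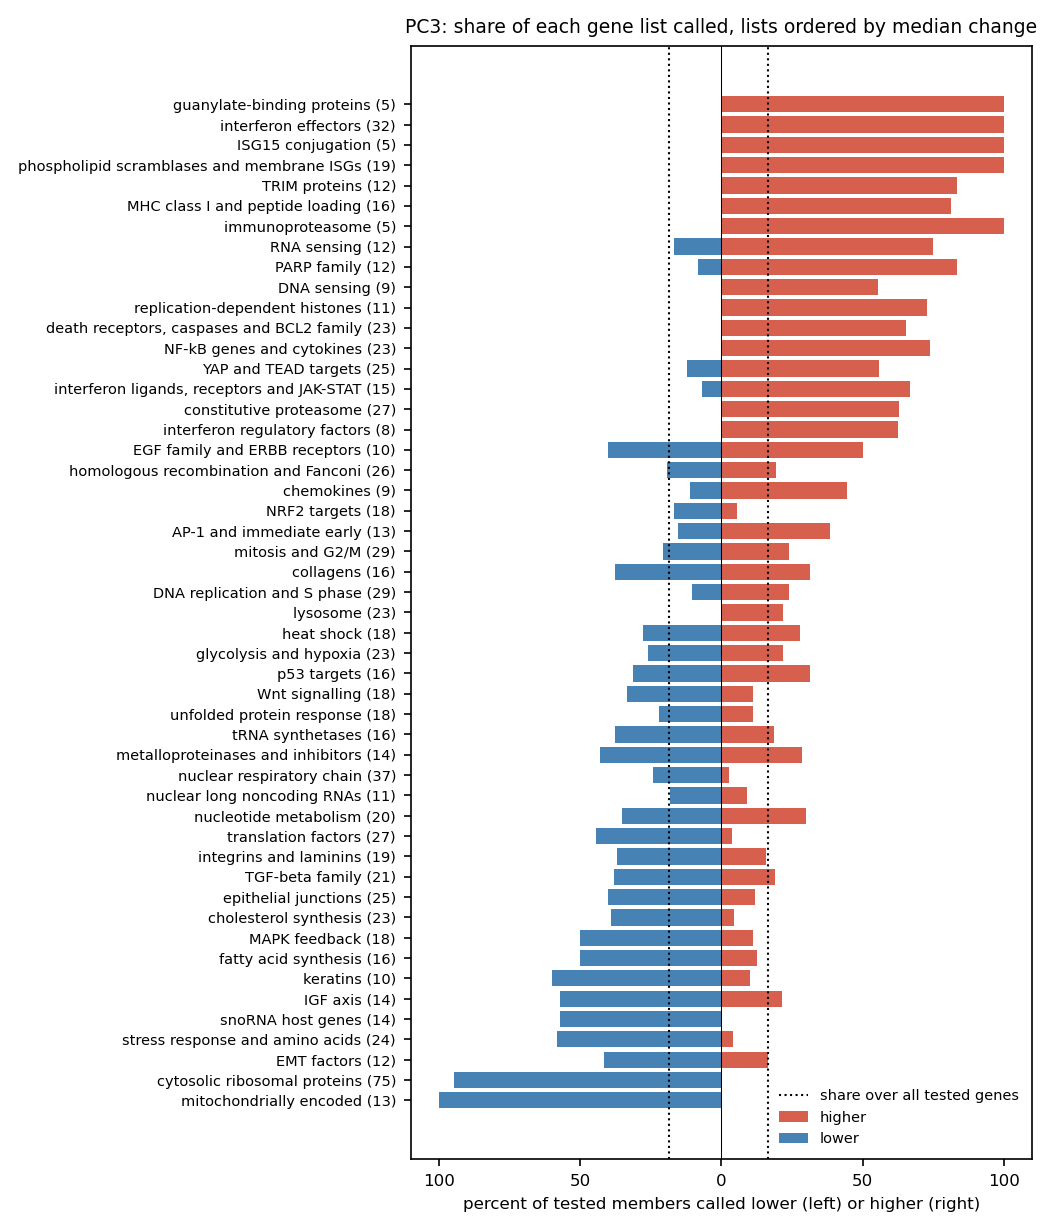
Percent of the tested members of each gene list called lower (left, blue) or higher (right, red) in PC3, with the number tested in brackets and lists ordered by median log2 change. Dotted lines mark 16.5% higher and 18.5% lower, the shares over all tested genes, and the first 10 lists are interferon-related while mitochondrially encoded and ribosomal protein genes fill the bottom.

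Outside the interferon-related lists, some of the largest rises were noncoding or clone-named genes lying on or beside interferon-stimulated genes. Of the 128 off-list genes higher by at least 4-fold, 22 (17.2%) lay within 10000 bases of an interferon-list gene that rose at least 4-fold, against 56 of 15883 other off-list genes (0.353%). These were 19 of 44 genes outside the protein-coding class, which takes in names with no annotation match, and 3 of 84 protein-coding genes. RP11-609D21.3 (chromosome 17, 6772831 to 6776116, minus strand) overlaps XAF1 (plus strand) and had 0 counts in both controls and 19.4 and 24.2 CPM with the circRNAs, at least 130-fold higher. AP001610.5, inside MX1 on the opposite strand, went from 3.81 and 3.51 CPM to 431 and 400 CPM. RP1-71H24.1, opposite OAS1, went from 1.12 and 1.11 CPM to 106 and 107 CPM. How the counting treated strand is not known, so reads of such pairs cannot be told apart. GBP1P1, a pseudogene of GBP1, went from 0.140 and 0.0278 CPM to 15.8 and 16.2 CPM, and may share reads with GBP1.

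Off-list rises of protein-coding genes away from such loci were as clear. TNFSF10 (TRAIL, chromosome 3, 172505508 to 172523507), a ligand that triggers death receptors, went from 0.785 and 1.17 CPM to 56.5 and 55.4 CPM (5.83 ± 0.13, edgeR adjusted p = 2.95e-23). IDO1, which breaks down tryptophan, went from 1.07 and 1.11 CPM to 51.6 and 49.8 CPM. The sodium channel gene SCN3A went from 0.533 and 0.278 CPM to 20.1 and 19.2 CPM. In each of these 3 genes the lowest circRNA library stood more than 20 times above the highest control. The noncoding LINC01285 (0.112 and 0.223 CPM in the controls, 6.43 and 6.77 CPM with the circRNAs) likewise went from near 0 to a measurable level. PLEKHA4, an adaptor that binds phosphoinositides, went from 9.48 and 9.77 CPM to 218 and 202 CPM. TRANK1 went from 9.76 and 9.82 CPM to 255 and 254 CPM. LAP3, an aminopeptidase, went from 32.7 and 32.1 CPM to 229 and 202 CPM, and PNPT1, a mitochondrial RNA exonuclease, from 26.4 and 29.8 CPM to 183 and 180 CPM.

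Genes of cell death rose without any called fall. Of 23 death receptor, caspase and BCL2 family genes tested, 15 rose, with a median of 0.50. PMAIP1 (NOXA), a BH3-only protein that neutralises MCL1, went from 70.0 and 61.3 CPM to 386 and 380 CPM. CASP1, the inflammatory caspase, went from 3.31 and 3.15 CPM to 35.0 and 35.4 CPM. MLKL, the executor of necroptosis, rose by 1.75, FAS by 1.39 and the initiator CASP10 by 2.01. The pore formers BAX (-0.03) and BAK1 (-0.09) and the TRAIL receptors TNFRSF10A (0.11) and TNFRSF10B (0.03) were not called. The ligand TNFSF10 therefore changed far more than either of its receptors in the list.

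NF-kB genes and cytokines rose in 17 of 23 and fell in 0, with a median of 0.44. IL6, an inflammatory cytokine, went from 1.85 and 3.1 CPM to 12.2 and 11.2 CPM (2.23 ± 0.17, edgeR adjusted p = 7.35e-11). CSF1, the macrophage growth factor, went from 1.74 and 1.39 CPM to 10.2 and 8.78 CPM, and PTGS2, the inducible prostaglandin synthase, from 4.60 and 4.12 CPM to 13.6 and 14.1 CPM. TNIP1, a partner of the ubiquitin editor TNFAIP3, started high and went from 535 and 525 CPM to 1586 and 1459 CPM. Subunits of the factor itself moved little, with RELA at 0.37 and NFKB1 at 0.28.

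Matrix, adhesion and growth control genes changed in both directions, beside 16.5% higher and 18.5% lower over all tested genes. PLAT, tissue plasminogen activator, fell from 150 and 153 CPM to 77.1 and 71.7 CPM. MMP13, a collagenase, went from 2.47 and 2.62 CPM to 31.5 and 37.1 CPM, while the collagenase MMP1 fell from 2.92 and 2.70 CPM to 1.33 and 1.26 CPM. Over 14 metalloproteinases and inhibitors, 4 rose and 6 fell. Among 25 targets of the YAP and TEAD factors, 14 were called higher and 3 lower (7 without the PC3 circ0003553 library), with a median of 0.36. The ectonucleotidase NT5E went from 31.9 and 30.7 CPM to 61.7 and 66.6 CPM, and LIMA1, an actin binder, rose by 0.91. Replication-dependent histone genes, whose messages end in a stem loop and mostly lack a poly(A) tail, rose in 8 of 11 and fell in 0 (median 0.58, 5 with a filter of 5 CPM). HIST2H2BE went from 1.82 and 1.17 CPM to 3.62 and 3.81 CPM.

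**Figure D3:**
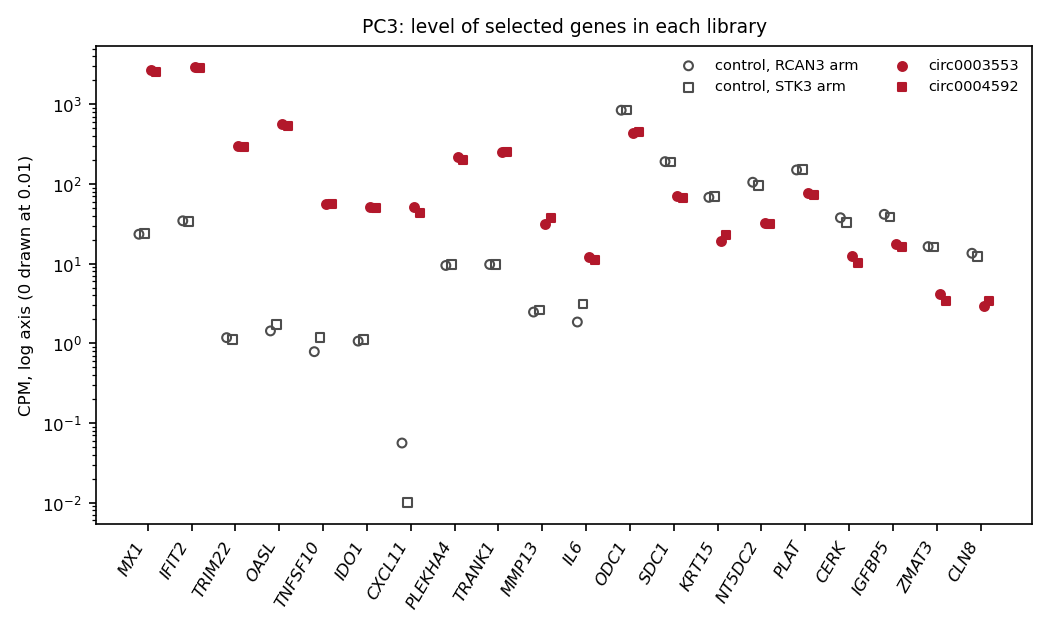
Level of 20 genes in each PC3 library, in CPM on a log axis, with open symbols for controls and filled symbols for the circRNAs (circles for the RCAN3 arm, squares for the STK3 arm). A count of 0 is drawn at 0.01. The pairs of a group lie close together except the CXCL11 controls, the 11 genes from MX1 to IL6 are higher with both circRNAs, and the 9 genes from ODC1 to CLN8 are lower with both.

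All 13 mitochondrially encoded messages fell. These encode core subunits of the respiratory chain and of ATP synthase. Their share of counts was 7.97% and 7.75% in the controls, 4.94% with circ0003553 and 6.08% with circ0004592. The median log2 change was -0.59 (-0.759 to -0.465 over the alternatives, in some of which not all 13 were called). Each of the 13 fell further with circ0003553 (median -0.79 against its own control) than with circ0004592 (-0.44). The 13 share 1 genome and each circRNA is 1 library, so this is 1 difference between libraries and not 13. MT-CYB, cytochrome b, stood at 2438 and 2391 CPM in the controls, at 1210 CPM with circ0003553 and at 1538 CPM with circ0004592 (-0.81 ± 0.08, edgeR adjusted p = 7.54e-09). MT-ATP6, a subunit of ATP synthase, stood at 10440 and 10080 CPM, then 6049 and 7170 CPM, the largest fall in CPM of any gene. MT-ND1, of complex I, fell least, from 6367 and 5786 CPM to 4140 and 5370 CPM. The DU145 libraries held 4.96% and 5.27% in the controls and 6.55% and 5.50% with the circRNAs. In bulk RNA, fewer cells of a kind and less RNA per cell cannot be told apart. Nuclear genes of the respiratory chain changed little. Of 37 tested, 9 fell and 1 rose, with a median of -0.08, and the 9 became 5 without the RCAN3 arm control, 3 without the STK3 arm control, 2 by DESeq2 and 1 with no filter. The exception NDUFA9, a complex I subunit, went from 16.2 and 17.1 CPM to 34.6 and 29.7 CPM.

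Cytosolic ribosomal protein genes fell in 71 of 75, by small amounts. The median was -0.34 and the range -0.67 to -0.08, and 44 of 75 were called with no filter on low counts. RPL3, of the large subunit, went from 931 and 943 CPM to 562 and 613 CPM (-0.67 ± 0.06, edgeR adjusted p = 2.24e-09), and RPS3A, of the small subunit, from 380 and 411 CPM to 243 and 258 CPM. Many ribosomal protein genes have processed pseudogenes that can share reads. Among 27 translation factors, 12 fell and 1 rose, with EIF3L (-0.60) and the elongation factor subunit EEF1G (-0.52) ahead. Other factors, such as EIF3A (0.11) and EIF4E (0.01), were not called.

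Lipid and amino acid genes fell by modest amounts. Their counts stand beside 16.5% higher and 18.5% lower over all tested genes. Of 23 cholesterol synthesis genes 9 fell and 1 rose (median -0.18), and of 16 fatty acid genes 8 fell and 2 rose (median -0.19). With no filter, 4 and 5 fell. The desaturase SCD went from 90.6 and 88.9 CPM to 61.1 and 63.5 CPM, and the sterol sensor INSIG1 from 23.7 and 23.1 CPM to 15.7 and 18.1 CPM. STARD4, a sterol carrier, moved the other way, from 14.1 and 14.8 CPM to 28.2 and 31.5 CPM. Of 24 stress response and amino acid genes, many of them targets of ATF4, 14 fell and 1 rose (median -0.28). TRIB3, a pseudokinase of that response, went from 60.6 and 57.6 CPM to 31.9 and 40.4 CPM, and CTH, which makes cysteine, from 7.32 and 8.18 CPM to 4.11 and 4.35 CPM. ATF4 itself was not called (-0.15). Of 16 tRNA synthetases 6 fell and 3 rose (1 without the RCAN3 arm control), and WARS, the tryptophan enzyme, went from 94.0 and 92.7 CPM to 168 and 177 CPM.

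Nucleotide enzymes changed in both directions, as did all tested genes (16.5% higher and 18.5% lower). Of 20 tested, 6 rose and 7 fell (4 without either PC3 control, 2 with no filter). The phosphorylase TYMP, which splits thymidine, went from 38.0 and 38.0 CPM to 150 and 141 CPM, and the nucleotidase NT5C3A from 24.3 and 25.6 CPM to 113 and 118 CPM. The uridine phosphorylase UPP1 fell from 97.1 and 105 CPM to 60.4 and 53.3 CPM. ODC1 (chromosome 2, 10439968 to 10448504), the first enzyme of polyamine synthesis, fell from 841 and 848 CPM to 432 and 446 CPM (-0.94 ± 0.06, edgeR adjusted p = 1.08e-12).

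Growth factor genes changed in both directions, and their feedback regulators mostly lower. Shares over all tested genes were 16.5% higher and 18.5% lower, and the rises of the TGF-beta family were near the former. Of 18 MAPK feedback genes, 9 fell and 2 rose (median -0.18). DUSP5, a nuclear phosphatase of ERK, went from 110 and 107 CPM to 60.5 and 64.0 CPM, and SPRY4 from 164 and 152 CPM to 101 and 99.3 CPM. Of 10 genes of the EGF family and its receptors, 5 rose and 4 fell (median 0.14). HBEGF fell from 61.7 and 71.0 CPM to 27.4 and 29.6 CPM and TGFA from 12.8 and 13.1 CPM to 6.04 and 6.87 CPM, while BTC rose from 8.61 and 10.5 CPM to 28.6 and 27.3 CPM and EGF from 2.36 and 3.15 CPM to 6.49 and 6.83 CPM. All of these ligands bind the EGF receptor, whose own message fell by 0.25. In the TGF-beta family 8 of 21 fell and 4 rose, with TGFB2 at -0.85 and GDF15 at -0.90, while ID3, a target of BMP signalling, went from 2.10 and 2.31 CPM to 7.43 and 9.08 CPM. Of 14 genes of the insulin-like growth factor axis, 8 fell (3 to 9 over the alternatives) and 3 rose (median -0.21). IGFBP5, which binds these factors, fell from 41.5 and 38.5 CPM to 17.5 and 16.4 CPM. IGFBP6 rose from 46.7 and 45.9 CPM to 95.6 and 106 CPM.

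Keratins and junction genes were called lower more often than higher, beside 16.5% higher and 18.5% lower over all tested genes. Of 10 keratins 6 fell and 1 rose, with 2 to 6 lower and 0 to 2 higher over the alternatives. KRT15 (chromosome 17, 41513743 to 41522529), a basal keratin, fell from 67.8 and 69.6 CPM to 19.3 and 22.7 CPM (-1.71 ± 0.08, edgeR adjusted p = 4.28e-16), and KRT19 from 754 and 730 CPM to 435 and 422 CPM. SDC1, a heparan sulfate proteoglycan of the cell surface, fell from 190 and 189 CPM to 69.6 and 67.2 CPM. Of 25 junction genes 10 fell and 3 rose, and the 10 became 6 without either PC3 control, 4 by DESeq2 and 3 with no filter. DSP, which anchors desmosomes, went from 101 and 96.6 CPM to 247 and 219 CPM, while its partner PKP2 fell by 0.78. COL6A3 fell from 789 and 725 CPM to 446 and 363 CPM, whereas COL6A1 (-0.01) and COL6A2 (0.09), which form the same collagen with it, were not called. The integrin subunits moved apart, with ITGA6 at -0.67 and ITGA2 at 0.70.

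The largest falls stayed near 4-fold. ZMAT3, an RNA-binding target of p53, fell from 16.4 and 16.2 CPM to 4.14 and 3.39 CPM (-2.11 ± 0.13, edgeR adjusted p = 6.77e-13). CLN8, which escorts lysosomal enzymes out of the endoplasmic reticulum, fell from 13.5 and 12.2 CPM to 2.93 and 3.39 CPM. NT5DC2 fell from 105 and 95.8 CPM to 32.2 and 31.0 CPM and CERK, ceramide kinase, from 37.7 and 33.1 CPM to 12.6 and 10.2 CPM. KRT37, a keratin, fell by 1.59, GABBR2, a GABA receptor subunit, by 1.56, and the cytokine subunit IL23A by 1.50. Of 16 p53 targets tested, 5 rose (3 without the STK3 arm control) and 5 fell, ZMAT3 and GDF15 (-0.90) among the latter, and CDKN1A rose from 10.2 and 9.88 CPM to 15.8 and 16.2 CPM. PC3 is known to lack functional p53.

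Proliferation genes stayed near the background of 16.5% higher and 18.5% lower. Of 29 replication genes 7 rose and 3 fell, and of 29 mitotic genes 7 rose and 6 fell, with medians of 0.01 and 0.02. The replication rises were 4 without the circ0003553 library, and the mitotic rises were 4 without either PC3 control and 1 with no filter. Of 26 genes of homologous recombination and the Fanconi pathway 5 rose and 5 fell (2 without either PC3 control, and the falls lost their calls under DESeq2). Among the rises, BRIP1, a helicase, rose by 1.23, BRCA2 from 6.62 and 5.96 CPM to 12.5 and 13.5 CPM, and the checkpoint kinase CHEK2 from 10.3 and 9.46 CPM to 20.4 and 20.1 CPM. Among the falls were FANCC (-0.60), of the Fanconi core complex, and the helicase BLM (-0.42). Heat shock genes also split (5 higher, 5 lower, of 18), with DNAJA1 at 1.07 and the co-chaperone BAG3 at -0.81. Lysosomal genes mostly were not called (5 of 23 higher, 0 lower), the exception in size being the protease CTSS, from 1.46 and 2.06 CPM to 7.43 and 7.79 CPM.

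Other signalling and stress lists held called genes in both directions or near the shares over all tested genes, except host genes of small nucleolar RNAs, whose calls were all lower. Of 18 Wnt genes 6 fell (3 with no filter) and 2 rose, and the ligands WNT7B (-1.20) and WNT5A (-0.85) and the receptor FZD8 (-0.86) led the falls. FZD8, the most abundant of these, went from 221 and 217 CPM to 126 and 115 CPM. Of 13 immediate early genes tested 5 rose (3 without the RCAN3 arm control), among them KLF4 (1.19) and ATF3 (1.07), and 2 fell. Of 18 unfolded protein response genes 2 rose (4 without the circ0003553 library) and 4 fell (2 without either PC3 control), with XBP1, which drives chaperone genes, from 153 and 146 CPM to 278 and 244 CPM. Of 14 host genes of small nucleolar RNAs, 8 fell and 0 rose (2 to 9 lower and 0 to 2 higher over the alternatives, 5 lower without either PC3 control and 4 without the circ0003553 library), with SNHG8 from 41.9 and 43.2 CPM to 26.7 and 28.4 CPM. The unfolded protein response and the glycolysis and hypoxia lists (5 higher and 6 lower of 23, the latter 2 without the STK3 arm control) were both close to the 16.5% higher and 18.5% lower of all tested genes. The latter held the peptide hormone ADM at 1.08 and NDRG1 at -0.75. Of 12 genes of the epithelial to mesenchymal transition 2 rose and 5 fell (2 without the RCAN3 arm control), with ZEB2, a repressor of CDH1, at 1.10 and the matrix protein fibronectin (FN1) at -0.47.

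The 2 circRNAs gave like changes when each was set against its own control. Of the 5676 called genes, 5673 had the same sign in both arms, a share that the pooled test favours. Of 693 genes called at 2-fold or more, 547 changed at least 2-fold the same way in each arm. Over all 16189 tested genes, the median absolute difference between the arms was 0.13 on the log2 scale, and 90.7% of genes differed by 0.5 or less. Most tested genes changed little with either circRNA, so this share does not by itself show like effects. Over the called genes, which the pooled test selects for agreement, the median was 0.11. These are single libraries and carry no test. Among the genes that differed most, IL6 rose by 2.69 with circ0003553 and by 1.82 with circ0004592. AIM2, on the interferon-related lists, rose by 6.23 with circ0003553 and by 5.09 with circ0004592. CEACAM1, a cell adhesion molecule, changed by 3.98 with circ0003553 and 5.44 with circ0004592. Among the falls, PBK, a mitotic kinase, changed by -0.85 and -0.06 with circ0003553 and circ0004592, and TMEM45B by -0.42 and -1.34. The controls of IL6, AIM2 and CEACAM1 held few reads and differed between arms: CEACAM1 stood at 0.729 and 0.278 CPM in the controls and at 12.3 and 14.3 CPM with the circRNAs.

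**Figure D4:**
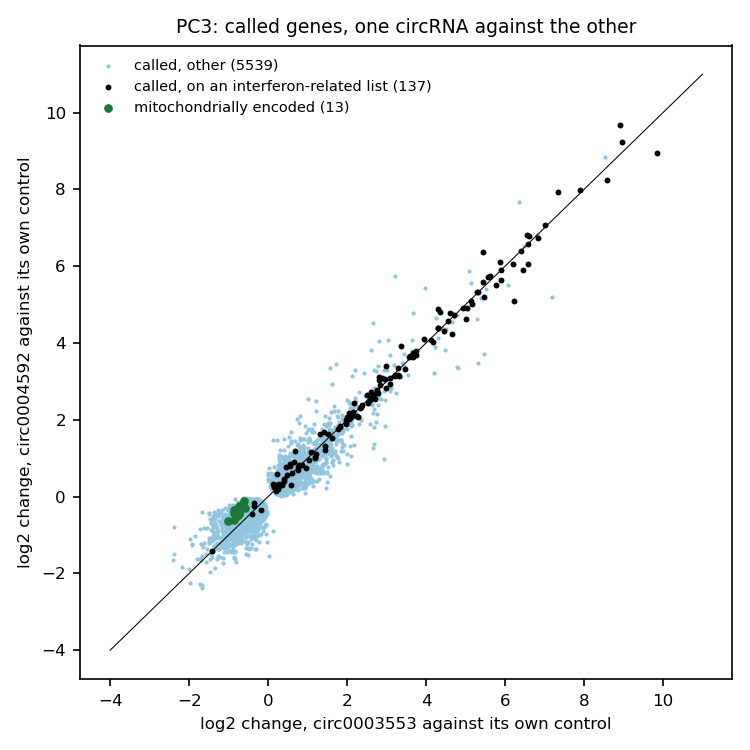
Log2 change of each gene called in PC3 with circ0003553 (horizontal) and with circ0004592 (vertical), each against the control library of its own arm, with the line of equal change. Interferon-related genes lie along that line, some of them off it, such as AIM2 (6.23 with circ0003553 and 5.09 with circ0004592). The 13 mitochondrially encoded genes lie above the line, since each fell less with circ0004592.

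The host genes of the circles differed from this shared pattern. RCAN3 stood at 33.1 and 29.4 CPM in the controls, at 43.9 CPM with circ0003553 and at 23.3 CPM with circ0004592, and was not called (edgeR adjusted p = 0.631). Without the circ0003553 library its change was -0.42 (edgeR adjusted p = 1.49e-04) and without the circ0004592 library 0.49 (edgeR adjusted p = 2.53e-07). STK3, which encodes a Hippo pathway kinase, stood at 7.69 and 9.10 CPM in the controls, at 9.39 CPM with circ0003553 and at 19.2 CPM with circ0004592. It was called higher by 0.77 ± 0.19 (edgeR adjusted p = 0.0023), and without the circ0004592 library the change was 0.16 (edgeR adjusted p = 0.447). Each gene was thus highest in the library given its own circle. Gene counts do not separate circular from linear RNA, and reads of the plasmid insert can fall in the gene's exons.

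The circRNA effect in PC3 differed from that in DU145 in many genes. In a fit of all 8 libraries, 17870 genes were tested for the difference of the 2 effects and 2166 were called (12.1%), 1164 with a higher change in PC3 (6.51%) and 1002 with a lower one (5.61%). The count was 1242 to 1409 without any 1 of the 4 PC3 libraries or the DU145 controls, and 3671 and 3832 without the DU145 circ0003553 and circ0004592 libraries. Of the 5676 genes called in PC3, 2000 differed between the lines. So did 403 of the 529 that were higher by at least 2-fold and 86 of the 164 lower by at least 2-fold. These genes were selected for a change in PC3 that the line difference also contains. Their shares are thus favoured in advance and are description only. Among the interferon effectors 30 of 32 rose more in PC3, and their median change in DU145 was 0.43 against 5.32. MX1 stood at 34.8 and 33.4 CPM in the DU145 controls and at 41.1 and 50.6 CPM with the circRNAs. PLEKHA4 went the opposite way in DU145, from 25.4 and 25.0 CPM to 11.2 and 10.7 CPM, and the difference between the lines was 5.65 ± 0.13 (edgeR adjusted p = 1.69e-14).

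**Figure D5:**
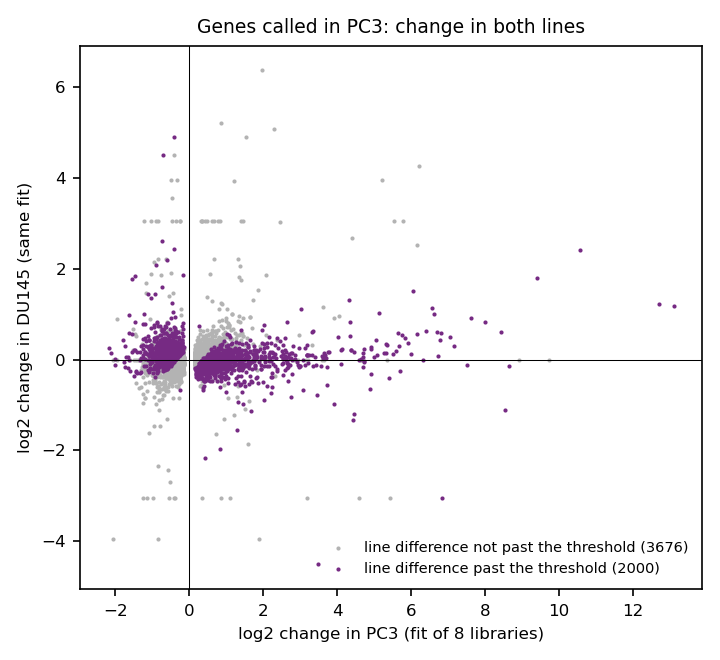
Log2 change with the circRNAs in PC3 (horizontal) and in DU145 (vertical) for the genes called in PC3, from a fit of all 8 libraries, with the 2000 genes whose change differed between the lines in purple. Most large rises in PC3 lie near 0 in DU145, and the horizontal bands far from 0 are genes with few or no counts in DU145.

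The line difference also covered the smaller PC3 changes. All 13 mitochondrially encoded genes changed lower in PC3 than in DU145, where their median was 0.26. Of the 75 ribosomal protein genes 36 differed in that direction, with a DU145 median of 0.06. Among YAP and TEAD targets 14 of 25 differed, all higher in PC3 (DU145 median -0.18), and among MAPK feedback genes 9 of 18, all lower (DU145 median 0.24). ODC1 fell in PC3 and stood at 200 and 207 CPM in the DU145 controls and at 283 and 285 CPM with the circRNAs there (difference -1.42 ± 0.11, edgeR adjusted p = 6.89e-08). The cholesterol list had medians of -0.18 in PC3 and -0.22 in DU145, and 3 of its 23 genes differed, near the 12.1% of all genes. STARD4 was one, with a difference of 1.57 ± 0.17 (edgeR adjusted p = 4.33e-06).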

How the data were processed

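The authors deposited raw read counts per gene and, separately, RPKM per gene (counts divided by length and library total), for each arm. Per the submitters' processing notes, Trimmomatic 0.36, featureCounts of Subread 1.5.1, edgeR 3.12.1 and hg38 were used; the aligner, annotation, strand setting and use of the 8-base molecular identifiers are not given in the sources used here. The tables list 36779 genes. The 5511 listed in 1 arm only had at most 14 counts and were set to 0 in the other. Gene positions are those of the deposited tables.

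Counts went into edgeR 4.0.16 (quasi-likelihood F test; R 4.3.3, limma 3.58.1, data.table version 1.17.8), with TMM factors over all 8 libraries, at least 1 CPM in at least 2 of the libraries fitted, and Benjamini-Hochberg adjustment over all genes tested, threshold 0.05. The PC3 fit used the 4 PC3 libraries (2 residual degrees of freedom per gene, beside 23.1 prior degrees of freedom pooled over genes). The line difference used all 8 in 4 groups (4 residual and 12.6 prior degrees of freedom). An SE was obtained from each gene as its log2 change over the root of its F. Changes against an arm's own control used a prior count of 2. Most small counts were even, as when both reads of a pair count, so the floor was 3 read pairs. It covers counting error only. Tests were checked on simulated counts. Gene classes came from GENCODE 29 by symbol (25138 matched). Tables were handled in Python with pandas and drawn with matplotlib.

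Named genes were, in PC3, the 12 largest rises and 12 largest falls with groups that do not overlap and at least 5 CPM in the higher group, the same off the interferon-related lists, the 10 largest gains and losses in CPM, up to 4 called members of each list, 5 genes per direction and arm that differed most between arms, the 8 smallest p-values per direction of the line difference off those lists, and RCAN3 and STK3. Other list members named with values were picked after their values were seen. The 4 libraries, lists and rule were chosen with earlier results of these data known. Alternatives were DESeq2 1.42.0 or its size factors, no filter, a filter of 5 CPM, RPKM (log2 after adding 0.1) with limma, a replicate block by arm, a prior count of 10, all 8 libraries in 1 fit and each library left out. TMM within PC3 was added after seeing the data.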

Additional observations from a re-analysis of the deposited data

Results flagged for a closer look

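The circRNA effect differed between PC3 and DU145 in 2166 genes, by the test of the difference itself in edgeR. The genes with the smallest p-values in each direction off the interferon-related lists follow, as the log2 change in PC3 minus that in DU145. Changes higher in PC3 were those of AP001610.5 (6.24), PLEKHA4 (5.65), TRANK1 (4.55), AC009950.1 (4.16), C19orf66 (2.82), LAP3 (2.69), PNPT1 (2.57) and PMAIP1 (2.42). Changes lower in PC3 were those of MMP1 (-2.57), ZMAT3 (-2.25), CLN8 (-2.03), NFATC2 (-1.98), KRT15 (-1.77), NT5DC2 (-1.73), SDC1 (-1.69) and ODC1 (-1.42). In DU145, MMP1 changed by 1.46, NFATC2 by 0.80, ODC1 by 0.48 and PLEKHA4 by -1.20, against the PC3 direction and by over 0.4 on the log2 scale. AC009950.1 overlaps SP110 and AP001610.5 overlaps MX1, so their reads cannot be told apart from those of their neighbours without the strand setting.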

How the results depend on the processing

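The 5676 calls in PC3 became 2848 with no filter on low counts and 3694 in the fit of all 8 libraries in 4 groups. They were 4068 by DESeq2, 4314 by limma on RPKM and 5664 with TMM within PC3 (3095 higher), and 4094 to 5488 with 1 library left out. The 2166 genes that differed between the lines became 2043 by DESeq2, 1600 by limma and 1242 to 3832 with 1 library left out. Without the DU145 circ0003553 or circ0004592 library there were 3671 and 3832, and without any other library 1242 to 1409. The lone library of a group is then taken to vary like the others. The titles pair each circRNA library with the control of its arm, and what else an arm shares is not stated. Differences between arms correlated at r = 0.07 across 16189 genes between controls and circRNA libraries. A correlation over all genes cannot exclude an arm effect in single genes. With a replicate block by arm, 6251 genes were called in PC3 and 1941 between the lines. RCAN3, not called, turned to -0.42 without the PC3 circ0003553 library and went to 0.49 without the circ0004592 library, and the medians of 12 lists, at most 0.14 in size, changed sign in some alternative (to at most 0.09 in size). None of the called genes followed through the alternatives changed direction. Of the single genes and list values, 4989 comparisons with an alternative kept their side of the threshold or their size, 154 lost the call, 1 gained it and 358 moved. The call of STK3 was among those lost. The floor of 6 counts was 0.167 to 0.181 CPM in PC3.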
